A study of Mus musculus with 20 samples.

Results

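Whole ovaries of old mice given vehicle were set against ovaries of young mice, gene by gene. The comparison took 8 of the 20 libraries of the series, chosen by their labels alone, and all 17651 genes of the deposited table. The aged group was 4 libraries from wild-type mice of 73 to 74 weeks that had received vehicle (aged libraries 1 to 4). The young group was 4 libraries from wild-type mice of 7 to 8 weeks (young libraries 1 to 4). Vehicle is named for the aged group and for no young one, so age and vehicle cannot be told apart. What the vehicle was, and whether a library came from 1 animal or from pooled ovaries, is not given in the sources used here, so p-values measure only the spread between these libraries, which may be technical. The other 12 libraries were adult ovaries and ovarian samples from adult and aged mice given HEP14, an activator of protein kinase C. The design text frames the series around ovarian function in aged mice under that compound, and no library given it entered the comparison.

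A mouse is born with its stock of oocytes enclosed in primordial follicles. Follicles are recruited from that stock throughout reproductive life, their granulosa cells divide and make anti-Müllerian hormone and oestrogen, and most of them degenerate. In old age few follicles remain, and stroma, immune cells and multinucleated macrophages take up a growing share of the organ. In whole tissue, fewer cells of a type and less RNA per cell cannot be told apart.

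The deposited values are scores: each gene was scaled to a mean of 0 and an SD of 1 over the 20 libraries. A difference is the aged mean minus the young mean in SD of that gene, not a fold change, and neither expression levels nor read depth can be had from it. With 4 libraries in each of 2 groups among 20, no difference can exceed 3.08 SD, and a gene comes near that limit when the other 12 libraries lie midway between the groups and each group is tight. The largest absolute difference found was 3.03 SD. In 4445 genes the lowest score was shared by at least 2 libraries, as it would be in genes without reads there. The 13206 genes without a shared lowest value are described before those 4445.

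The aged libraries were more scattered than the young ones. Libraries of a group had a median SD of 0.867 when aged and 0.279 when young, and 82.8% of genes varied more among the aged libraries. Over the 13206 genes, scores of 2 aged libraries correlated at 0.50 to 0.77, and those of 2 young libraries at 0.73 to 0.84. Aged libraries 1 and 2 lay furthest from the rest: 3697 and 3589 of their genes were at a shared lowest value, against 1956 and 2338 in aged libraries 3 and 4 and 791 to 936 in the young libraries. The aged libraries exceeded the young ones by 2031 such genes on average (two-sided exact permutation p = 0.0286, the smallest that 4 against 4 allows). Counts for groups of genes are therefore also given without aged libraries 1 and 2. A test that allowed each group its own variance was used for every gene (limma's variance moderation within each group, Satterthwaite degrees of freedom, Benjamini-Hochberg adjustment over all 17651 genes, adjusted p of 0.05). "Rose" and "fell" are used only of genes that passed it.

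Of all 17651 genes 10133 passed (57.4%), with 4103 higher in aged ovaries (23.2%) and 6030 lower (34.2%). These are shares of the deposited table, which lacks some genes, among them Fshr, Cyp17a1, Csf1r and Pecam1. Of 2006 genes listed for the gene groups 1737 were in it, and the counts of a group leave out the rest. Among the 13206 genes without a shared lowest value 8155 passed (61.8%), with 3911 higher (29.6%) and 4244 lower (32.1%), and no overlap between 4 aged and 4 young scores was seen in 65.1%, against 60.1% of all genes. A group of genes is therefore read against a background in which about as many genes rose as fell and the median difference was -0.04 SD. The genes left out of that background, those with a shared lowest value, had 192 rises and 1786 falls. Most groups hold protein-coding genes, and the 11708 of these in the background leaned lower. Their median was -0.40 SD, with 28.7% higher and 34.6% lower. The counts rest on the aged libraries more than on the young ones: they were lowest without aged library 4 (7294 genes in all, 5520 without a shared lowest value). A variance left unmoderated in each group gave 7985 and 6566 genes. Setting every library's median to 0 shifted the difference of every gene upward by 0.43 SD, and then 5598 genes were higher and 5565 lower, or 5089 and 4028 of those without a shared lowest value, where rises then outnumbered falls. Without aged libraries 3 and 4, which leaves the 2 libraries furthest from the rest, 1943 of the 13206 genes were higher and 1613 lower, and most groups described below had fewer calls. There 13 of 13 mitochondrially encoded subunits, 8 of 19 inflammasome genes and 5 of 25 T cell genes rose (1 T cell gene fell), and 17 of 31 small ribosomal subunit genes fell. SR proteins and splicing kinases had 10 rises and 2 falls among 22 genes. DNA replication had 5 falls and 3 rises among 38 genes, mitosis 5 falls among 35, Rab GTPases 5 falls and 3 rises among 31, and clock genes 2 falls and no rise among 16.

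The difference also moved with the base composition and length of the transcript. Among protein-coding genes without a shared lowest value, the median difference was -1.24 SD in the decile with the lowest GC content and 1.60 SD in the decile with the highest. By transcript length the median was 0.60 SD in the shortest decile and -1.29 SD in the longest. Long intergenic noncoding RNAs (288 genes) had a median of 1.84 SD, with 44.4% higher and 4.51% lower, and 238 antisense genes had one of 1.76 SD, whereas 417 processed pseudogenes had one of -0.79 SD. RNA integrity was not given, and the part of GC content, length and RNA quality in any single result was not tested. For the groups of genes below, most counts are repeated in a fit in which the median of every decile of GC content and of length had been set to 0 in each library (called levelled below). In that fit 4043 of the 13206 genes were higher and 4114 lower.

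**Figure D1:**
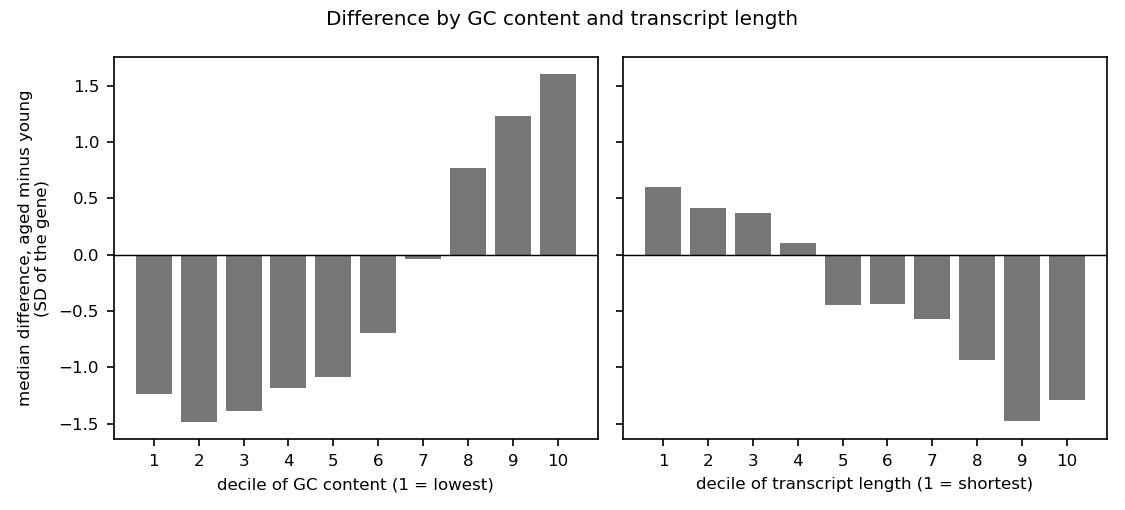
Median difference, aged vehicle minus young ovaries, in SD of the gene (vertical axis), for protein-coding genes without a shared lowest value in deciles of GC content (left) and of transcript length (right), lowest decile first. The median is -1.24 SD in the lowest and 1.60 SD in the highest decile of GC content, and 0.60 SD in the shortest and -1.29 SD in the longest decile of length.

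Whole ovary was checked against 118 markers of its own and of neighbouring cells, of which 105 were in the table. All 21 cell types had at least 1 marker there, and since scores carry no level, a marker at or near 0 cannot be recognised. Over all genes 23.2% rose and 34.2% fell. Of 10 oocyte markers 9 fell and none rose, of 6 stromal markers 5 fell, and of 8 granulosa markers 3 fell, a share near that of all genes. Of 6 T cell markers 5 rose, and the 4 markers of giant or lipid-laden macrophages in the table all rose. Of 6 luteal markers 4 rose and of 5 theca markers 3, with Lhcgr counted in both. Of 8 surface epithelium markers 3 rose and 1 fell. Markers of neighbouring tissue differed mostly among the young libraries: the mean score of 2 oviduct markers without a shared lowest value spanned -0.21 to 0.37 in aged and -0.16 to 2.32 in young libraries, and that of 2 fat cell markers -0.60 to 0.32 in aged and 0.26 to 2.42 in young libraries. Their part in the results was not tested.

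The genes with the largest differences came from many functions, and each of those named next had no overlap between aged and young libraries. H19, the imprinted noncoding RNA that is made in growing tissue (chromosome 7, 142575529 to 142578143, minus strand, GENCODE M21 on GRCm38), scored -1.40, -1.45, -1.47 and -1.55 in aged libraries and 1.48, 1.52, 1.5 and 1.38 in young libraries. Both groups were tight, and the difference was -2.94 SD (SE 0.08, adjusted p = 3.76e-06). Scaf11, a splicing-associated factor (chromosome 15, 96411699 to 96460843, minus strand), scored -1.77, -1.60, -1.76 and -1.71 in aged libraries and 1.23, 1.13, 1.16 and 1.27 in young libraries. Araf, a kinase of the RAF family (chromosome X, 20797814 to 20860519, plus strand), scored 1.87, 1.86, 1.84 and 1.80 in aged libraries and -0.93, -1.02, -0.81 and -1.04 in young libraries.

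Other genes with very large falls were Prps2, an enzyme of nucleotide precursor synthesis (-2.92 SD), Srp54a of the signal recognition particle (-2.91 SD), Cdca7l, a chromatin factor linked to cell division (-2.91 SD), the epithelial splicing regulator Esrp1 (-2.90 SD) and Nos2, the inducible nitric oxide synthase (-2.90 SD). Nos2 is known from activated macrophages and from ovarian follicles, and its aged scores of -1.92, -1.30, -1.43 and -1.82 were all below the young ones of 1.54, 0.94, 1.24 and 1.41. Among the falls with the smallest p were the transcription factor Ets2 (-2.58 SD) and Smarcc1, a core subunit of the SWI/SNF chromatin remodeller (-2.70 SD). Very large rises included the membrane-anchored netrin relative Ntng2 (2.85 SD), Tbk1, the kinase that switches on interferon regulatory factors (2.85 SD), Sf1, the splicing factor that reads the branch point (2.64 SD), and Mfsd2b, the sphingosine-1-phosphate exporter of blood cells (2.69 SD). For Ntng2 the levelled difference was 1.23 SD (adjusted p = 0.011), and for Tbk1 it was 3.31 SD.

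**Figure D2:**
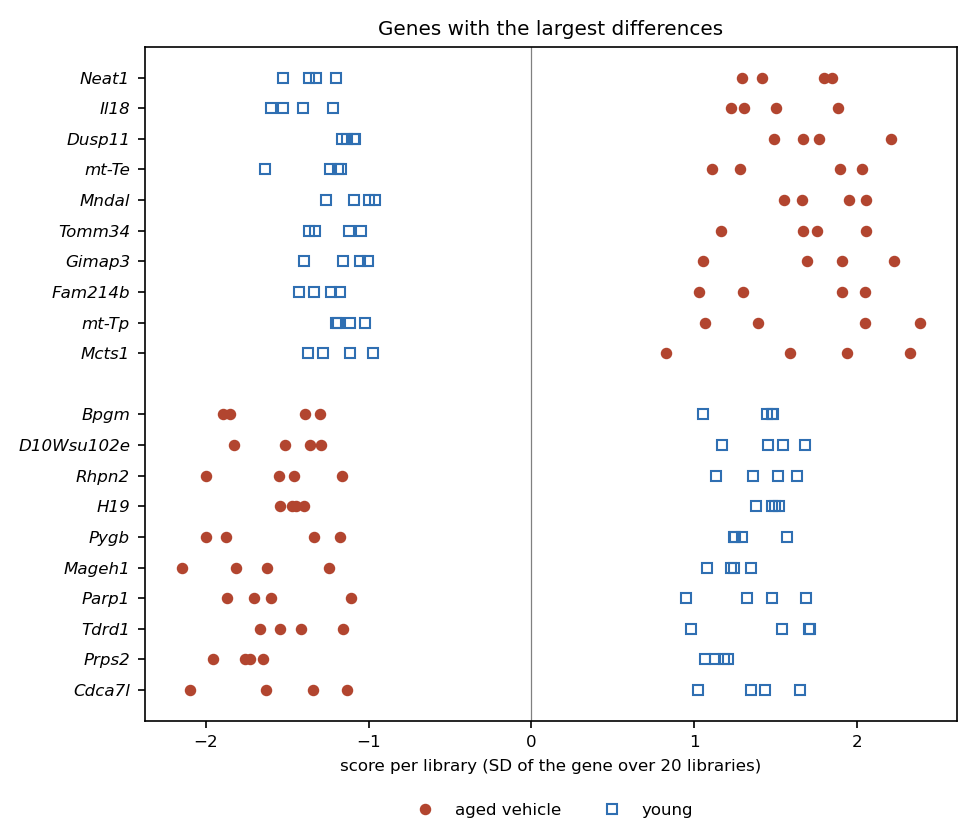
Score per library (horizontal axis, SD of the gene) for the 10 genes with the largest rise (upper block) and the 10 with the largest fall (lower block) among named genes without a shared lowest value, predicted genes and pseudogenes left out, with the 4 aged vehicle libraries as filled circles and the 4 young libraries as open squares. In all 20 genes the aged and young libraries do not overlap.

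Genes of the egg coat and of maternal effect fell. All 6 egg coat and oocyte-secreted genes without a shared lowest value fell (median -2.63 SD), and they fell in the levelled fit and without aged libraries 1 and 2 as well. Bmp15, the growth factor through which the oocyte acts on its granulosa cells (chromosome X, 6314107 to 6320721, minus strand), scored -2.27, -1.99, -0.94 and -1.34 in aged libraries and 1.24, 0.96, 0.48 and 1.31 in young libraries. The groups were apart, with aged library 3 nearest to the young ones (difference -2.63 SD, SE 0.32, adjusted p = 0.00134). Astl, the protease that hardens the egg coat after fertilisation, differed by -2.69 SD, and Zp2, the coat protein it cleaves, by -2.63 SD.

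Of 10 maternal-effect genes, whose products the egg lays down for the embryo, 8 fell and 1 rose (median -2.55 SD). In the levelled fit 9 fell and none rose, and without aged libraries 1 and 2 there were 6 falls and 1 rise. Zbed3, a member of the subcortical complex of the egg, scored -1.83, -2.26, -1.24 and -1.62 in aged libraries and 1.15, 0.76, 1.07 and 1.23 in young libraries, a difference of -2.79 SD. Npm2, the histone chaperone of the egg, differed by -2.32 SD (adjusted p = 0.00043). The 1 rise was that of Tle6 (1.87 SD), a call lost without aged library 4 (1.97 SD, adjusted p = 0.0516) and in the levelled fit (0.73 SD, adjusted p = 0.12). Khdc3 did not pass (-0.18 SD, adjusted p = 0.86), and both encode members of the same subcortical complex as Zbed3. Of 7 meiosis and synaptonemal complex genes without a shared lowest value 1 rose, 1 fell and 5 did not pass (median 1.30 SD). Over all 12 in the table, with those that had a shared lowest value, 1 rose, 3 fell and 8 did not pass (median -0.93 SD). The sign of the median thus depended on which members were counted.

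Of 8 regulators of the primordial follicle without a shared lowest value 4 fell and 2 rose, or 3 and 2 levelled and also without aged libraries 1 and 2. Over all 13 in the table, with those that had a shared lowest value, 9 fell and 2 rose (median -2.36 SD). Foxo3, the transcription factor that holds primordial follicles dormant (chromosome 10, 42181841 to 42276755, minus strand), scored -1.42, -2.10, -1.88 and -1.61 in aged libraries and 1.08, 0.76, 0.88 and 0.79 in young libraries. Its difference was -2.63 SD (SE 0.16, adjusted p = 0.000161), or -1.96 SD when levelled. Kitl, the granulosa ligand of the oocyte receptor KIT, also fell (-2.43 SD), and Kit itself did not pass (-1.76 SD, adjusted p = 0.068). Tsc1, a brake on mTOR, rose (1.86 SD).

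Granulosa genes split the aged libraries. Of 16 granulosa hormones and receptors 7 fell and none rose (median -1.67 SD). In the levelled fit 8 fell and 1 rose, and without aged libraries 1 and 2 there were 7 falls and 1 rise. The number of falls stayed the same without those libraries, but the median difference shrank to -0.32 SD. The mean score of the 16 genes was -2.10 and -1.93 in aged libraries 1 and 2, and -0.16 and 0.02 in aged libraries 3 and 4, against 0.11 to 0.68 in young libraries. Amh, the hormone of small growing follicles (chromosome 10, 80805243 to 80807648, plus strand), scored -2.79, -1.80, -0.69 and -1.41 in aged libraries and 0.80, 0.72, 0.96 and 0.84 in young libraries (difference -2.50 SD, SE 0.40, adjusted p = 0.0111). Its receptor gene Amhr2 scored -0.83, -3.15, -1.25 and -1.11 in aged libraries and 0.83, 0.86, 0.68 and 0.98 in young libraries. The oestrogen receptor gene Esr2 had aged scores of -2.41 and -2.58 in libraries 1 and 2 and of 0.04 and -0.24 in libraries 3 and 4, with young scores from 0.61 to 1.24. The call of Amh was lost without aged library 4 (adjusted p = 0.0516), that of Amhr2 without aged library 3 or 4 (adjusted p = 0.0721 and 0.0671), and that of Esr2 (-2.34 SD) without any 1 of the aged libraries (adjusted p = 0.0614 to 0.115). Cyp19a1, the enzyme that makes oestrogen, and Foxl2, the transcription factor that maintains granulosa identity, did not pass (-0.29 SD, adjusted p = 0.79, and 0.17 SD, adjusted p = 0.84), and in both the groups overlapped.

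Genes of theca and luteal cells, which make androgen and progesterone, moved both ways. Of 10 theca and androgen genes 4 rose and 2 fell, also 4 and 2 levelled, and 3 and 2 without aged libraries 1 and 2. Of 11 luteal genes 3 rose and 2 fell, or 6 and none in the levelled fit and 5 and 1 without aged libraries 1 and 2. Lhcgr, the receptor of luteinising hormone, scored 0.75, 1.27, -0.19 and 0.90 in aged libraries and -1.94, -1.23, -1.5 and -0.96 in young libraries, a difference of 2.09 SD (SE 0.34, adjusted p = 0.00329). Cyp11a1, the enzyme that opens steroid synthesis from cholesterol, scored 1.03, 0.85, -0.72 and -0.04 in aged libraries and -2.63, -0.43, -1.88 and -1.5 in young libraries. Aged library 3 was below young library 2, so the groups overlapped although the difference of 1.89 SD passed (adjusted p = 0.0193). That call was lost without aged library 2, aged library 4 or young library 3 (adjusted p = 0.0503 to 0.0557). Prlr, the prolactin receptor that sustains the corpus luteum in mice, differed by 2.31 SD.

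**Figure D3:**
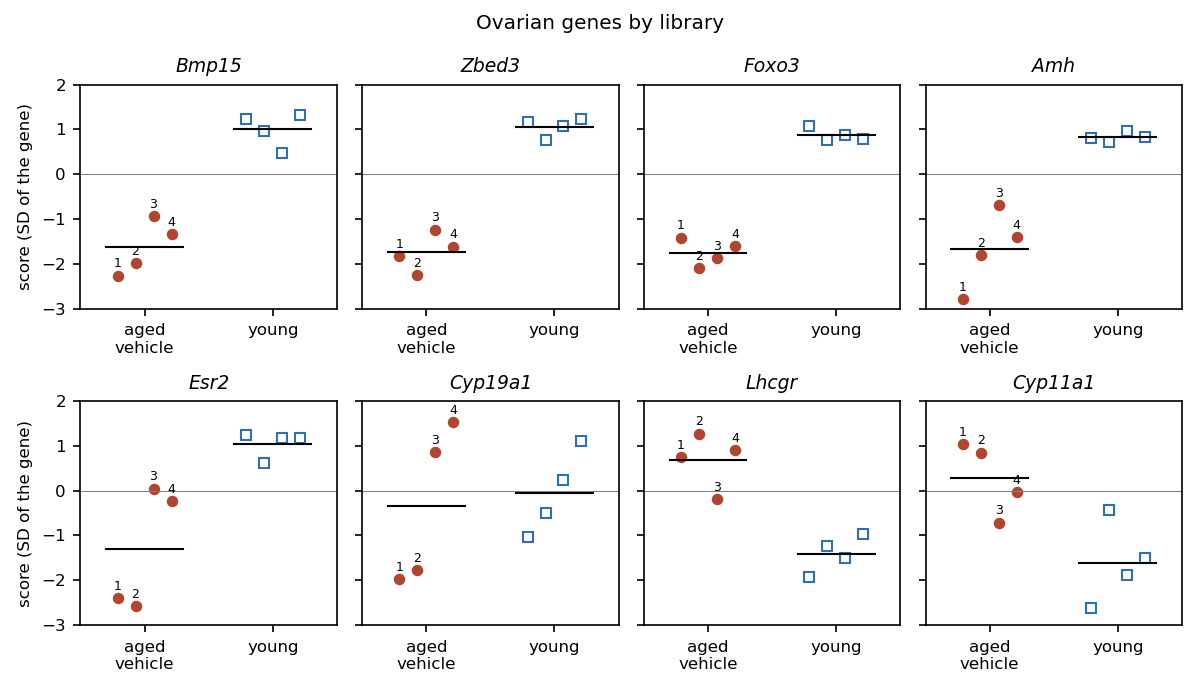
Score per library (vertical axis, SD of the gene) of 8 ovarian genes, in the 4 aged vehicle libraries (filled circles, left) and the 4 young libraries (open squares, right) of each panel, with the library number beside each aged point and a bar at each group's mean. Bmp15, Zbed3, Foxo3, Amh and Esr2 lie below the young libraries in all aged libraries, and Cyp19a1 in aged libraries 1 and 2, while Cyp11a1 overlaps.

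Genes of cell division fell. Of 38 DNA replication genes 18 fell and 2 rose (median -2.07 SD). In the levelled fit 22 fell and 2 rose, and without aged libraries 1 and 2 there were 21 that fell and 2 rose. Mcm5, a subunit of the MCM helicase that opens DNA for copying (chromosome 8, 75109569 to 75128439, plus strand), scored -1.52, -0.77, -1.82 and -1.86 in aged libraries and 1.25, 1.65, 1.53 and 1.04 in young libraries, a difference of -2.86 SD (SE 0.27, adjusted p = 0.000638). Mcm2 of the same helicase differed by -2.84 SD, and Pola1, the catalytic subunit of the polymerase that starts each strand, by -2.87 SD. Pold3, an accessory subunit of polymerase delta, went the other way, with 1.90, 2.16, 1.60 and 1.66 in aged libraries and 0.05, -0.23, 0.06 and 0.01 in young libraries (1.86 SD, adjusted p = 0.000292).

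E2F factors switch replication genes on as cells enter S phase, and the promoters of 3 of these genes are shown, from 2 that fell and 1 that rose. An E2F motif was read as TTTCCCGC, TTTCGCGC, TTTGCCGC or TTTGGCGC on either strand, from 250 bases before to 50 after the RefSeq start site (GRCm38.p6), where matches on opposite strands can overlap. It was found in 472 of 11542 genes with a promoter entry (4.09%), in 12 of 32 replication genes (37.5%) and in 3 of 28 mitosis genes. Matches are in capitals below, 5′ to 3′ along the gene, for Mcm5 (chr8:75109259-75109558), Pola1 (chrX:93632106-93632405, minus strand) and Pold3 (chr7:100121453-100121752, minus strand). A match is a run of letters and not a bound site.
Mcm5: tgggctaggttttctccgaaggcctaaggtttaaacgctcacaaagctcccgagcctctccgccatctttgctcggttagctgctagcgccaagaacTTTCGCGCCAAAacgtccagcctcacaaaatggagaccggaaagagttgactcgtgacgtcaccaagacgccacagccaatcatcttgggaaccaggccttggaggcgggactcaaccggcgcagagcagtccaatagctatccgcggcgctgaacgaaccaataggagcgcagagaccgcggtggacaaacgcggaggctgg
Pola1: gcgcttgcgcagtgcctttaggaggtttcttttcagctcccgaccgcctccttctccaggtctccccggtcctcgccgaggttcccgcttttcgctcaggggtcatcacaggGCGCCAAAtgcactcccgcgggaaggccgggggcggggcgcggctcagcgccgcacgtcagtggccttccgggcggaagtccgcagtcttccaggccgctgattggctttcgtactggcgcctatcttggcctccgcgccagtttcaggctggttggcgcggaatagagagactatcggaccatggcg
Pold3: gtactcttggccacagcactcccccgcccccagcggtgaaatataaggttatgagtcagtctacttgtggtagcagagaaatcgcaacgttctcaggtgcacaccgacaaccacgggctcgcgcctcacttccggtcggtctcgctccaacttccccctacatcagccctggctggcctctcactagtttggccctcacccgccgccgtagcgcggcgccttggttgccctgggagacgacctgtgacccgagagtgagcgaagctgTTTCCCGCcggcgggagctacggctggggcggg
In Mcm5 matches on both strands overlap, the first beginning at position -153 from the start site, and in Pold3, whose RNA rose, the match begins at position 18.

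Of 35 mitosis genes 18 fell and none rose (median -2.14 SD), also 18 in the levelled fit, and 24 without aged libraries 1 and 2. Prc1, which bundles microtubules at the middle of the dividing cell, scored -1.29, -2.07, -1.62 and -1.97 in aged libraries and 1.10, 1.07, 1.16 and 1.02 in young libraries (difference -2.83 SD, SE 0.18, adjusted p = 0.000576). The cyclin gene Ccna2 differed by -2.78 SD. Aged library 1 was lowest for the list, at a mean of -2.68 over the 35 genes, with -0.44, -0.72 and -0.37 in aged libraries 2 to 4 and 0.95 to 1.10 in young libraries. Genes of homologous recombination and double-strand break repair were mixed, 12 of 24 falling and 6 rising, or 7 and 6 in the levelled fit and 9 and 6 without aged libraries 1 and 2. The median of the 24 genes was -1.85 SD. Among the 6 rises were Prkdc, the kinase of end joining (2.50 SD), and Rad52 of homologous recombination (2.60 SD). Trp53bp1, which channels breaks to end joining, was another (2.28 SD), and the 12 falls are not named here.

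SR proteins and splicing kinases rose, and core spliceosome genes moved both ways. Of 22 SR proteins and splicing kinases, which select exons, 17 rose and 3 fell (median 2.43 SD). In the levelled fit 19 rose and 3 fell, and without aged libraries 1 and 2 again 17 rose and 3 fell. Of 31 core spliceosome genes 8 rose and 16 fell, or 4 and 15 levelled, and 11 and 11 without aged libraries 1 and 2. Clk2, a kinase that phosphorylates SR proteins (chromosome 3, 89164795 to 89176921, plus strand), scored 1.94, 1.94, 1.89 and 1.88 in aged libraries and -0.51, -0.69, -0.44 and -0.58 in young libraries. The difference was 2.47 SD (SE 0.08, adjusted p = 4.13e-06), and 1.65 SD levelled. Clk4 of the same family differed by 2.66 SD, Srsf11 by 2.66 SD and Srpk1, the cytoplasmic SR kinase, by 2.12 SD. Sf3b1, which recognises the branch point, rose (2.56 SD), whereas its partner Sf3a1 fell (-2.64 SD).

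Of 16 nuclear long noncoding RNAs 11 rose and H19 alone fell (median 2.06 SD), or 13 and 1 levelled and 11 and 1 without aged libraries 1 and 2. Airn, the antisense transcript that silences the Igf2r region, scored 1.84, 1.44, 1.67 and 1.88 in aged libraries and -0.80, -1.0, -0.93 and -0.93 in young libraries (2.62 SD, adjusted p = 4.87e-05). Firre, a repeat RNA of the X chromosome, differed by 2.57 SD and Malat1 of nuclear speckles by 2.30 SD. Airn overlaps Igf2r on the other strand and the strand setting of the counting is not given, so reads of the pair cannot be told apart.

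Genes of the cytosolic ribosome and of translation fell. Of 31 small-subunit genes 26 fell and none rose (median -2.16 SD), and of 43 large-subunit genes 27 fell and 4 rose (median -1.69 SD). Levelled, the counts were 27 and 0, and 32 and 1, and without aged libraries 1 and 2 they were 23 and 1, and 30 and 3. Rps26 scored -1.77, -1.57, -1.75 and -1.61 in aged libraries and 0.59, 0.43, 0.82 and 0.84 in young libraries (-2.35 SD, adjusted p = 1.67e-05). Rplp0 of the ribosomal stalk differed by -2.56 SD. Ribosomal protein genes have many near-identical pseudogenes, so their counts are uncertain. Of 39 initiation and elongation factors 26 fell and 3 rose, or 25 and 3 levelled and 28 and 2 without aged libraries 1 and 2. Eif4h, a helper of the cap-bound helicase, differed by -2.67 SD, and Eef2, which moves the ribosome along, by -2.62 SD.

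The machinery that folds and degrades proteins fell too. Of 26 chaperonin and heat shock genes 20 fell and 2 rose (median -2.16 SD), and the 2 rises were those of the heat shock transcription factors Hsf1 and Hsf2, the call of Hsf2 (1.77 SD) being lost without aged library 1 (adjusted p = 0.0524). Hsf1 scored 2.35, 1.90, 1.66 and 1.41 in aged libraries and -0.55, -0.78, -0.72 and -0.54 in young libraries (2.48 SD, adjusted p = 0.000915). Cct3, a subunit of the cytosolic chaperonin ring, scored -2.20, -1.70, -1.57 and -1.95 in aged libraries and 0.50, 0.66, 0.62 and 0.73 in young libraries (-2.48 SD, adjusted p = 0.000229). Levelled, the list had the same counts, and without aged libraries 1 and 2 there were 18 that fell and 1 rose. Of 21 genes of folding in the endoplasmic reticulum 15 fell and 1 rose, or 16 and 1 levelled and 12 and 1 without aged libraries 1 and 2. P4hb, a disulfide isomerase that also serves collagen hydroxylation, differed by -2.42 SD, and the chaperone gene Hspa5 by -2.41 SD.

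Of 26 subunits of the standard proteasome 15 fell and 2 rose (median -1.95 SD), while all 5 immunoproteasome genes rose (median 2.35 SD). Levelled, 17 and 4 of the 26 fell and rose and all 5 rose, and without aged libraries 1 and 2 there were 17 that fell and 3 rose, and 3 of 5 rose. Psmb10, which replaces a catalytic subunit under interferon gamma, scored 1.96, 2.08, 0.73 and 1.35 in aged libraries and -1.14, -0.41, -1.28 and -1.02 in young libraries (2.49 SD, SE 0.33, adjusted p = 0.00185). Psmd8 of the regulatory lid scored -2.07, -1.58, -1.85 and -2.03 in aged libraries and 0.49, 0.73, 0.66 and 0.52 in young libraries (-2.48 SD, adjusted p = 6.6e-05).

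**Figure D4:**
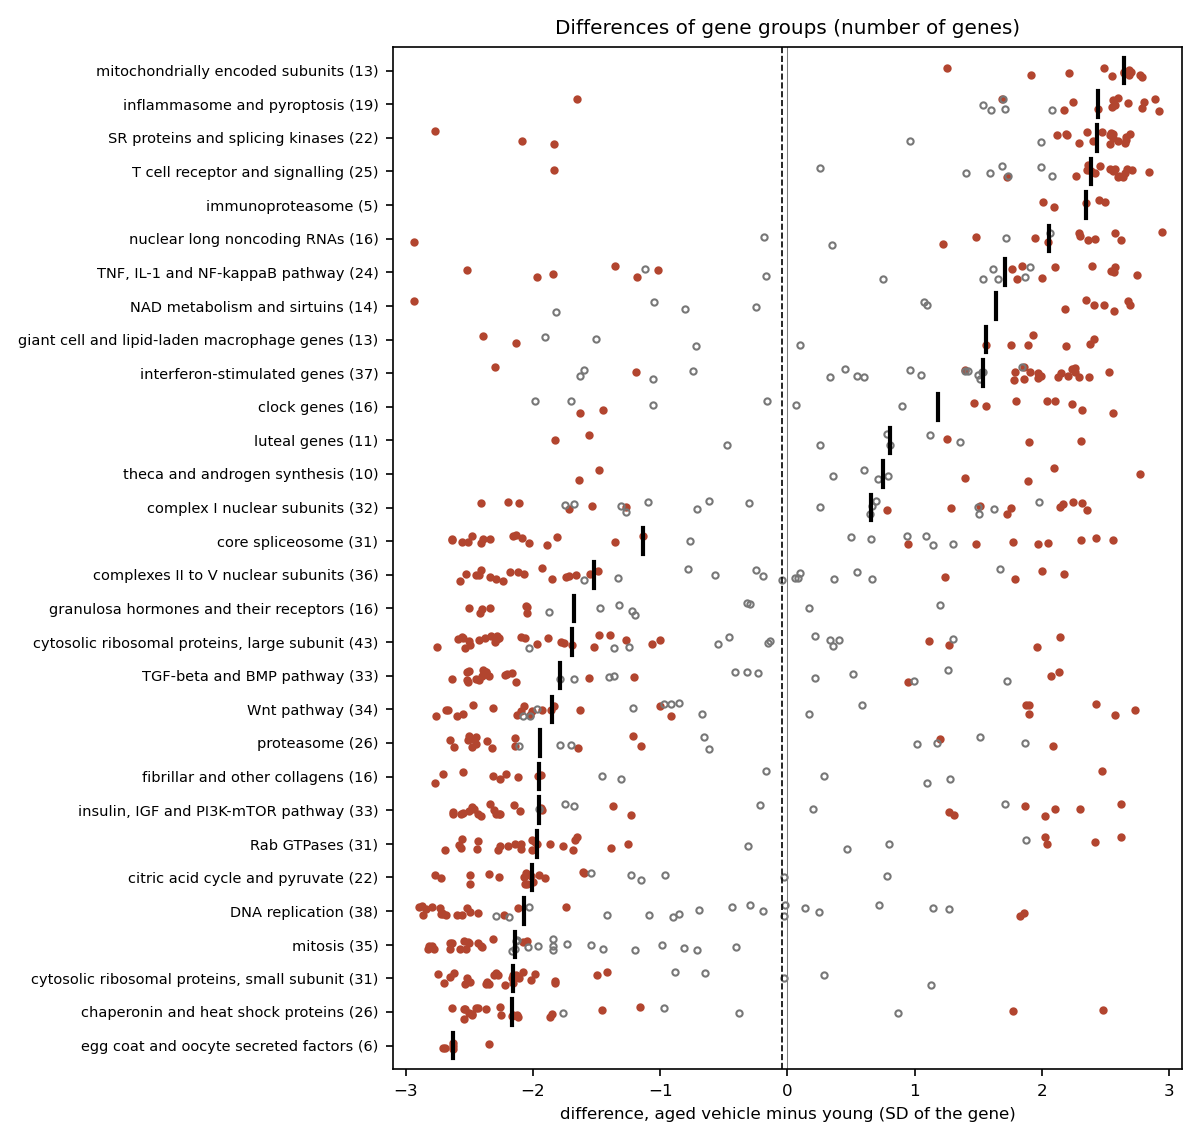
Difference per gene, aged vehicle minus young ovaries (horizontal axis, SD of the gene), for members without a shared lowest value of 30 gene groups (rows), with genes that passed as filled points, other genes as open points and the group's median as a black bar. The dashed line is the median of all 13206 such genes, -0.04 SD. Inflammasome genes, SR proteins and splicing kinases and mitochondrially encoded subunits lie to the right, and ribosomal, chaperone, citric acid cycle and cell division genes to the left.

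All 25 genes of the mitochondrial chromosome without a shared lowest value rose, among them 13 subunit genes, 10 transfer RNAs and 2 ribosomal RNAs (median 2.65 SD). Of the transfer RNAs with a shared lowest value, mt-Tg for glycine fell (-1.89 SD, adjusted p = 0.014), a call lost without aged library 2, 3 or 4 (adjusted p = 0.0619 to 0.0698), and the other 5 did not pass. Of the 13 subunit genes 12 rose in the levelled fit and 13 without aged libraries 1 and 2. mt-Co3, a subunit of cytochrome oxidase, scored 1.83, 2.12, 1.29 and 1.82 in aged libraries and -0.98, -1.04, -1.11 and -0.96 in young libraries (2.78 SD, adjusted p = 0.000521). The largest differences on that chromosome were those of the transfer RNAs mt-Te for glutamate and mt-Tp for proline. mt-Te scored 1.89, 2.03, 1.11 and 1.28 in aged libraries and -1.64, -1.17, -1.24 and -1.19 in young libraries (2.89 SD, SE 0.24), and mt-Tp differed by 2.86 SD. Both are printed because genes this short, 69 and 67 bases, are read within longer precursors, on the strand opposite to most other mitochondrial genes (GENCODE M21 transcripts, GRCm38, 5′ to 3′, anticodon in capitals, T for U). They lie at chromosome M, 14071 to 14139 and 15356 to 15422. Mitochondrial genes have near-identical nuclear copies, so counting could split their reads.
mt-Te: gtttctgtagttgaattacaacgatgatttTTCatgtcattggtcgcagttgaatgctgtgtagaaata
mt-Tp: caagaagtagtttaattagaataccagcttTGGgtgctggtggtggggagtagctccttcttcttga

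Nuclear genes of the mitochondrion differed by group. Of 22 genes of pyruvate and the citric acid cycle 16 fell and none rose (median -2.01 SD), also 16 and none levelled, and 13 and 1 without aged libraries 1 and 2. Their mean score lay between -1.39 and -1.34 in all 4 aged libraries and between 0.26 and 0.65 in young ones. Dlat, the core of the pyruvate dehydrogenase complex, scored -1.62, -1.22, -2.09 and -1.40 in aged libraries and 0.85, 1.29, 1.62 and 1.0 in young libraries (-2.77 SD, adjusted p = 0.000122). Sucla2, a subunit of succinyl-CoA ligase, differed by -2.27 SD. Of 36 nuclear subunits of complexes II to V 18 fell and 4 rose, or 23 and 4 levelled and 18 and 8 without aged libraries 1 and 2. Of 60 mitochondrial ribosomal protein genes 20 rose and 16 fell, or 15 and 15 levelled and 16 and 10 without aged libraries 1 and 2, and of 21 mitochondrial import genes 6 rose and 11 fell. The 32 nuclear subunits of complex I had no settled direction, with 6 falling and 10 rising, 11 and 8 levelled, and 9 and 9 without aged libraries 1 and 2.

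Among 28 glycolysis and glycogen genes 17 fell and 6 rose (median -2.17 SD), or 16 and 7 levelled and 16 and 6 without aged libraries 1 and 2. Eno3, the muscle form of enolase, scored 2.04, 1.88, 1.79 and 1.92 in aged libraries and -0.59, -0.68, -0.49 and -0.57 in young libraries (2.49 SD, SE 0.09, adjusted p = 6.94e-06). Tpi1, triose phosphate isomerase, differed by -2.35 SD and Ldha, which makes lactate, by -2.63 SD. Of 20 fatty acid oxidation genes 10 fell and 2 rose, also without aged libraries 1 and 2, and 9 and 2 levelled, with the long-chain dehydrogenase gene Acadvl at -2.49 SD. Of 14 genes of NAD metabolism and sirtuins 7 rose and 1 fell, also 7 and 1 levelled, and 6 and 3 without aged libraries 1 and 2. Sirt7, the nucleolar sirtuin, scored 2.07, 2.0, 1.59 and 1.86 in aged libraries and -0.83, -0.79, -0.84 and -0.81 in young libraries (2.70 SD, adjusted p = 0.000104). Parp1, the main consumer of NAD at DNA breaks, was the 1 fall (-2.93 SD). Sirt1 did not pass (-1.82 SD, adjusted p = 0.11), and its aged scores ran from -3.21 to 0.45.

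Genes of the inflammasome, which turns danger signals into active interleukin-18 and interleukin-1β, rose. Of 19 such genes 13 rose and 1 fell (median 2.44 SD), or 16 and 1 levelled and 15 and 1 without aged libraries 1 and 2. The sensors were listed with their relatives, among them Mndal of the DNA-binding PYHIN family (chromosome 1, 173849126 to 173942491, minus strand). Mndal scored 2.06, 1.95, 1.55 and 1.66 in aged libraries and -1.26, -1.09, -1.0 and -0.96 in young libraries, a difference of 2.88 SD (SE 0.14, adjusted p = 4.12e-05). Nlrp1b differed by 2.67 SD and Aim2, a sensor of cytosolic DNA, by 2.55 SD, whereas Nlrp3 did not pass (1.69 SD, adjusted p = 0.15). Nlrp3 scored 3.84 in aged library 1 and -0.03 to 0.97 in the other aged libraries, with young scores from -0.63 to -0.31.

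Among the effectors, Casp1, the protease that cleaves both cytokines, scored 1.99, 2.45, 1.06 and 1.64 in aged libraries and -0.87, -1.02, -1.03 and -1.07 in young libraries (2.78 SD, adjusted p = 0.00284). Gsdmd, the pore-forming protein, scored 2.46, 2.09, 1.46 and 1.43 in aged libraries and -0.58, -0.57, -0.61 and -0.57 in young libraries (2.44 SD, adjusted p = 0.00282). The cytokine gene Il18 scored 1.88, 1.31, 1.22 and 1.5 in aged libraries, and its secreted antagonist Il18bp scored 2.11, 1.62, 1.02 and 1.08. Both rose, Il18bp by 2.80 SD (SE 0.37, adjusted p = 0.000894) with young scores of -0.49, -1.14, -1.74 and -2.01. Il1b did not pass (1.53 SD, adjusted p = 0.16). Mndal and its PYHIN relatives lie in a cluster of near-identical copies, so reads could be split between them.

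T cell genes rose. Of 25 T cell receptor and signalling genes 17 rose and 1 fell (median 2.38 SD), or 18 and 1 levelled and 8 and 1 without aged libraries 1 and 2. The mean score of the 25 genes was 1.33, 2.20, 0.39 and 1.13 in aged libraries and lay between -0.89 and -0.70 in young libraries. Il7r, the receptor of the T cell survival factor interleukin-7, scored 1.36, 1.28, 0.23 and 1.24 in aged libraries and -1.61, -1.75, -1.59 and -1.48 in young libraries (2.63 SD, adjusted p = 0.00228). Of 7 GTPases of the IMAP family, which support lymphocyte survival, 5 rose and none fell, or 6 of 7 levelled and 2 of 7 without aged libraries 1 and 2, with Gimap8 at 2.72 SD. Of 12 cytotoxic and NK genes 4 rose, near the share of all genes, and none fell. Levelled, 3 rose and none fell, and likewise without aged libraries 1 and 2. Aged library 2 stood highest for these 12 genes, with means of 0.29, 2.88, 0.15 and 0.58 in aged libraries 1 to 4. Young libraries lay between -0.69 and -0.43. B and plasma cell genes depended on single libraries: 7 of 23 rose, near the share of all genes, and 1 fell, 11 and 2 levelled, and none rose and 1 fell without aged libraries 1 and 2. Their mean score was 1.15, 0.23, -0.03 and 2.69 in aged libraries and -0.54 to -0.42 in young libraries.

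Of 37 interferon-stimulated genes 18 rose and 2 fell (median 1.53 SD), or 22 and 2 levelled and 11 and 5 without aged libraries 1 and 2. Stat2, a subunit of the complex that binds the interferon response element, scored 2.22, 2.72, 1.03 and 1.36 in aged libraries and -0.60, -0.55, -0.52 and -0.48 in young libraries (2.37 SD, adjusted p = 0.0095). Irf1, a transcription factor of the interferon gamma response, differed by 2.52 SD, Isg15 did not pass (1.05 SD, adjusted p = 0.11), and the ubiquitin ligase gene Trim25 fell (-2.30 SD). The interferon response element was read as GAAA, any 2 bases and GAAA on either strand, in the same windows as above. It occurred in 457 of 11542 genes (3.96%) and in 14 of 26 interferon-stimulated genes (53.8%). The promoter of Stat2 (chr10:128270248-128270547) is shown with its 1 match in capitals, on the reverse strand, beginning at position -222 from the start site.
Stat2: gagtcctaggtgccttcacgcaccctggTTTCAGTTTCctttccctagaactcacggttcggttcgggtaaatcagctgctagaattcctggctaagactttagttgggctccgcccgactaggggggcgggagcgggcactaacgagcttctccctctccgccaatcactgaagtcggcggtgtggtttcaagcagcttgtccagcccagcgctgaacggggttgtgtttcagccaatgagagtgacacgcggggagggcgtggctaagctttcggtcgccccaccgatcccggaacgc

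Antigen presentation was less even. Of 16 MHC class I and peptide-loading genes 8 rose and 3 fell, also 8 and 3 levelled, and 4 and 5 without aged libraries 1 and 2, where more fell than rose. The non-classical class I gene H2-Q4 rose (2.61 SD, adjusted p = 0.00172), the loading chaperones Pdia3 (-2.21 SD) and Calr (-2.17 SD) fell, and B2m, the shared light chain, did not pass (-0.00 SD, adjusted p = 1). H2-Q4 has close copies at the same locus, so its counts are uncertain. Of 24 genes of TNF, interleukin-1 and NF-κB signalling 10 rose and 6 fell, or 11 and 3 levelled and 7 and 4 without aged libraries 1 and 2. Chuk, the kinase of the non-canonical arm, rose (2.75 SD), as did Nfkb2 (2.56 SD) and Relb (2.58 SD), the pair of factors it releases, while the TNF receptor gene Tnfrsf1a fell (-1.84 SD).

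Macrophage genes did not move as one. Of 14 resident macrophage genes 5 rose and 2 fell, or 5 and 1 levelled and 4 and 2 without aged libraries 1 and 2, with Cd68 of the lysosome at 2.30 SD, a call lost without aged library 2, 3 or 4 (adjusted p = 0.0536 to 0.0737). The mean score of the 14 genes was 1.56, -0.41, -0.63 and 0.06 in aged libraries 1 to 4. Young libraries lay between -0.31 and -0.20. Of 13 genes of multinucleated and lipid-laden macrophages 7 rose and 2 fell, or 6 and 4 levelled and 7 and 4 without aged libraries 1 and 2. Trem2, a lipid receptor of such cells, scored 2.28, -0.04, -0.06 and 0.35 in aged libraries and -1.72, -1.26, -1.58 and -1.66 in young libraries (2.19 SD, SE 0.51, adjusted p = 0.0277), and aged library 1 stood well above the other 3. The call was lost without aged library 2, 3 or 4 (adjusted p = 0.0666 to 0.0931). The mean score of the 13 genes was also highest in aged library 1, at 1.12, with -0.76, -0.63 and -0.26 in aged libraries 2 to 4. In young libraries that mean lay between -0.91 and -0.22. Atp6v0d2, a proton pump subunit of fused macrophages, differed by 1.93 SD. Csf3r, the receptor of the neutrophil growth factor, scored 1.99, 1.77, 2.04 and 1.72 in aged libraries and -0.90, -0.81, -0.89 and -0.99 in young libraries (2.78 SD, adjusted p = 1.74e-05), and no other of 6 neutrophil and mast cell genes passed.

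Extracellular matrix genes fell. Of 16 collagens 9 fell and 1 rose (median -1.95 SD), with the same counts levelled and 10 and 3 without aged libraries 1 and 2. Col11a1, a minor fibrillar collagen, scored -2.42, -1.17, -1.33 and -1.65 in aged libraries and 1.57, 0.76, 0.96 and 1.21 in young libraries (-2.77 SD, adjusted p = 0.000852), and Col15a1 of the basement membrane zone differed by -2.21 SD. Col27a1, another fibrillar collagen, was the 1 rise, with 1.39, 1.85, 1.70 and 2.33 in aged libraries and -0.59, -0.66, -0.86 and -0.50 in young libraries. Of 21 genes of elastic fibres and crosslinking 11 fell and 4 rose, or 14 and 3 levelled and 12 and 5 without aged libraries 1 and 2. Of 24 proteoglycan and hyaluronan genes 12 fell and none rose, or 15 and 3 levelled and 11 and 1 without aged libraries 1 and 2. The crosslinking enzyme gene Loxl3 was among the rises (2.31 SD), and the heparan sulfate proteoglycan gene Gpc4 among the falls (-2.22 SD).

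Growth factor pathways fell more often than they rose, at several steps of each. In the Wnt pathway 18 of 34 genes fell and 6 rose, also 18 and 6 levelled, and 18 and 4 without aged libraries 1 and 2. The ligand gene Wnt4, needed for the female gonad (chromosome 4, 137277489 to 137299726, plus strand), was among the rises, with 1.30, 1.53, 1.13 and 0.77 in aged libraries and -1.75, -1.04, -2.03 and -1.36 in young libraries (2.73 SD, SE 0.24, adjusted p = 0.000145). The ligand enhancer Rspo1 (1.88 SD) and its receptor Lgr5 (2.58 SD) rose as well, although Rspo1 was 0.25 SD and did not pass when levelled (adjusted p = 0.56), nor without aged library 2 or 4 (adjusted p = 0.0531 and 0.0637). The receptor gene Fzd2 (-2.76 SD), the transducer Ctnnb1, which encodes β-catenin (-2.31 SD), and the scaffold of its destruction complex Axin1 (-2.69 SD) fell. Of the secreted antagonists, Sfrp4 rose (1.90 SD) and Sfrp1 fell (-2.47 SD).

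In the Hedgehog pathway 5 of 10 genes fell and 1 rose, also without aged libraries 1 and 2, and 5 and none levelled, with the receptor Ptch1 (-2.71 SD), the transducer Smo (-2.79 SD) and the inhibitor Sufu (-2.55 SD) all lower. Smo scored -1.89, -2.19, -1.35 and -1.60 in aged libraries and 1.26, 0.81, 1.05 and 1.01 in young libraries. In the TGF-β and BMP pathway 18 of 33 genes fell and 3 rose, or 15 and 3 levelled and 17 and 3 without aged libraries 1 and 2. The ligand Bmp6 (-2.64 SD) and the signal carrier Smad5 (-2.43 SD) fell, while Id1, a target of BMP signals, rose (2.07 SD). In the Notch pathway 11 of 18 fell and 2 rose, or 10 and none levelled and 9 and 2 without aged libraries 1 and 2, led by the receptor-cleaving proteases Adam17 (-2.66 SD) and Adam10 (-2.73 SD). Of 19 Hippo pathway genes 8 fell and none rose, or 6 and none levelled and 5 and 1 without aged libraries 1 and 2, among them Yap1 (-2.70 SD) and its relative Wwtr1 (-2.59 SD), the growth-promoting cofactors at the pathway's end.

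Of 33 genes of insulin, IGF and PI3K-mTOR signalling 20 fell and 7 rose, or 18 and 7 levelled and 19 and 5 without aged libraries 1 and 2. The adaptor Irs1 scored -1.88, -2.10, -1.58 and -1.49 in aged libraries and 1.01, 0.53, 1.12 and 0.80 in young libraries (-2.63 SD, adjusted p = 5.36e-05). The kinase gene Akt1 differed by -2.50 SD and the receptor gene Igf1r by -2.10 SD, whereas Rps6kb1, a kinase switched on by mTOR, rose (2.62 SD). For Igf1r the levelled difference was -0.91 SD and did not pass (adjusted p = 0.052).

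Membrane traffic fell: 23 of 31 Rab GTPases fell and 4 rose, or 18 and 2 levelled and 18 and 3 without aged libraries 1 and 2. Rab3d of secretory granules, which differed by -2.69 SD (SE 0.13, adjusted p = 1.25e-05), scored -2.02, -1.72, -1.76 and -1.72 in aged libraries and 1.04, 1.02, 0.59 and 0.90 in young libraries. Of 32 autophagy and mitophagy genes 21 fell and 6 rose, or 17 and 7 levelled and 15 and 7 without aged libraries 1 and 2, with the mitophagy receptor Bcl2l13 at -2.69 SD and the lipid transfer gene Atg2a at 2.58 SD. Lysosome genes split the aged libraries, 9 of 31 falling and 9 rising, or 11 and 8 levelled and 15 and 9 without aged libraries 1 and 2. The mean score of the 31 genes was 0.68 in aged library 1 and -0.82, -0.88 and -0.69 in aged libraries 2 to 4. Young libraries lay between -0.26 and -0.10. The peptidase genes Tpp1 (2.83 SD) and Ctsa (2.50 SD) were among the rises, and the 9 falls are not named here.

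Of 16 clock genes 8 rose and 2 fell, or 7 and 2 levelled and 6 and 1 without aged libraries 1 and 2, with the repressors Per1 (2.56 SD) and Per2 (2.31 SD) among the rises. The hour of tissue collection is not given in the sources used here. Of 20 immediate early genes, which respond within minutes to handling and to injury, 9 rose and 1 fell, but 2 rose and none fell in the levelled fit and 6 and 1 without aged libraries 1 and 2. Junb scored 0.38, 0.99, 1.17 and 2.40 in aged libraries and -1.0, -0.93, -1.39 and -1.42 in young libraries (2.42 SD, adjusted p = 0.00905), and 0.80 SD levelled, which did not pass (adjusted p = 0.19), and the call was also lost without aged library 3 (adjusted p = 0.0511). Of 19 genes of senescence and cell cycle arrest 3 rose and 5 fell, or 2 and 7 levelled and 4 and 5 without aged libraries 1 and 2, and with the library medians set to 0 there were 6 rises and 5 falls. Cdkn1a, the p21 inhibitor, did not pass (-0.00 SD, adjusted p = 0.99), the stress gene Gadd45b rose (2.24 SD), and Lmnb1, the nuclear lamin gene that falls in senescent cells, fell (-2.71 SD).

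Among the 4445 genes with a shared lowest value 1978 passed (44.5%), with 192 higher in aged ovaries (4.32%) and 1786 lower (40.2%). Genes entered this class by ties at their lowest value, and the number of genes so tied was larger in aged libraries, as given above. Falls could therefore outnumber rises here through the rule that formed the class, and their excess is no separate result. Among the largest falls in this class were those of Sel1l3 (-2.95 SD), the piRNA methyltransferase gene Henmt1 (-2.94 SD), the flap endonuclease gene Fen1 (-2.92 SD) and the oocyte gene Nlrp4a. Fen1 was at the lowest value in all 4 aged libraries (-1.53) and scored 1.74, 1.47, 1.47 and 0.89 in young libraries. The oocyte transcription factor genes Nobox (-2.70 SD), Figla (-2.42 SD), Sohlh1 (-2.36 SD) and Lhx8 (-2.60 SD), which build and keep the primordial follicle pool, all fell, Sohlh1 not without young library 4 (adjusted p = 0.0519). Figla and Sohlh1 were at the lowest value in 3 of 4 aged libraries, and Nobox and Lhx8 in 2. The young scores of Figla were 1.74, 1.86, -0.13 and 2.10.

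Rises in this class included Acr, the acrosomal protease of sperm, and Pou5f2, a POU factor of the testis. Pou5f2 was at the lowest value in all 4 young libraries (-0.48) and scored 2.84, 1.27, 1.11 and 2.15 in aged libraries (2.33 SD, SE 0.37, adjusted p = 0.0112), a call lost without aged library 4 (adjusted p = 0.0571). Acr scored 2.62, 1.12, 1.31 and 2.22 in aged libraries and -0.67, -0.76, -0.59 and -0.19 in young libraries.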

How the data were processed

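RNA of whole ovaries was measured in 20 libraries, 4 in each of 5 groups, after TRIzol extraction and sequencing on an Illumina NovaSeq, per the labels' protocols. Per the submitters' processing notes, which state no roles, the tools were DESeq2 1.20.0, HISAT2 2.0.5 and featureCounts 1.5.0-p3. The genome build is not given in the sources used here. The authors deposited 1 score per gene and library, which the values show to be centred and scaled to unit SD over the 20 libraries, so depth and counts are unknown.

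Group means were compared with limma 3.58.1 in R 4.3.3, each group's variance moderated separately. Checked on simulated data, this test gave somewhat too many small p-values for genes without a difference and the unmoderated variance did not, so counts from both are given. A lowest value was shared where at least 2 libraries agreed within 1e-09. Of the gene identifiers, 17643 matched GENCODE M21 (GRCm38), and promoters came from RefSeq (GRCm38.p6). Same-numbered aged and young libraries deviated together with correlations of -0.02 to 0.10, and the labels give the numbers no meaning, so libraries were not paired. Other variances, scalings, left-out libraries and a replicate block were tried as alternatives.

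Genes, gene groups and members were chosen with earlier results of these data known. Named genes were drawn from the 15 largest differences and the 10 smallest p per direction with no overlap between groups, the 3 smallest p of each gene group and its largest p that did not pass, the 5 largest differences per direction with a shared lowest value, and members that define a pathway step. Predicted genes and pseudogenes were left out, and other members were chosen after their values were seen. Some genes are not reported here. Python 3.11.15, pandas 2.3.3 and matplotlib 3.10.9 were also used.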

Additional observations from a re-analysis of the deposited data

Results flagged for a closer look

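In 18 of the 304 groups of 4 libraries examined for the named genes and the library summaries, 1 library stood away from the other 3 by more than Dixon's critical value for 4 values (5.9%). The rate of about 1 in 20 by chance holds for normally distributed values. A group whose other 3 libraries share the lowest value is always flagged, so the share cannot be set against that rate. Among aged libraries, library 3 stood apart for Yap1 at -0.36 (the others at -1.99 to -1.78), for Il7r at 0.23 (1.24 to 1.36), for Figla at -0.84 (all others at -1.09, the lowest value) and for Nlrp4a at -1.44 (all others at -1.62, the lowest value). Aged library 2 stood apart for Wwtr1 at -2.57 (-1.52 to -1.47), for Tpi1 at -2.38 (-1.79 to -1.72) and for Mfsd2b at 1.82 (1.90 to 1.91). Aged library 1 stood apart for Rab3d at -2.02 (-1.76 to -1.72) and for mt-Tg at 1.11 (all others at -0.58, the lowest value), and aged library 4 for Sohlh1 at -0.70 (all others at -1.14, the lowest value).

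Among young libraries, library 2 stood apart for Esr2 at 0.61 (the others at 1.17 to 1.24), for Ctnnb1 at 0.67 (0.35 to 0.38), for Pdia3 at 0.91 (0.27 to 0.36), for Pold3 at -0.23 (0.01 to 0.06) and for Sfrp4 at -1.32 (-1.87 to -1.83). Young library 3 stood apart for Figla at -0.13 (1.74 to 2.10) and for Relb at -1.11 (-0.70 to -0.68), and young library 1 for mt-Te at -1.64 (-1.24 to -1.17).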

How the results depend on the processing

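Of 140 named genes that passed, 127 passed whichever 1 library was left out, and the other 13 are given with their values above. Many of the 140 were chosen for a small p or a large difference in these same libraries. Among all 10133 genes that passed, 5956 did so in the same direction whichever 1 library was left out. All 140 kept their direction under every alternative run, while 11 lost the call without aged libraries 1 and 2 and 33 without aged libraries 3 and 4. With GC and length levelled, with library medians set to 0, with 1 pooled variance over 8 or 20 libraries or 1 precision weight per group, without moderation, with a lowest value shared within the 8 libraries and with the adjustment over genes without a shared lowest value, counts of genes that passed stayed within 1.5 times, at 7985 to 13119 of all genes and 6566 to 10301 of those without a shared lowest value. Leaving out 1 library gave 7294 to 10032 and 5520 to 8088. Without aged libraries 1 and 2 the counts were 9552 and 7709, and without aged libraries 3 and 4 they were 5648 and 3556, with 2 aged libraries in the fit each time. Levelling and these 2 settings were chosen after the data were seen. Pairing same-numbered libraries in a replicate block gave 11228 and 9083 genes, with correlations of deviations from -0.02 to 0.10 by number. The excess of genes at a shared lowest value in aged libraries was 1763 to 2344 with 1 library left out, and without any 1 of the young libraries its exact permutation p was 0.0571. The library median score was lower by 0.43 in aged ovaries (two-sided exact permutation p = 0.0286), and over genes without a shared lowest value the difference was -0.032 (two-sided exact permutation p = 0.314). Among named genes that did not pass, signs turned with the setting. With library medians set to 0, B2m was 0.42 SD, Cdkn1a 0.42 SD, Cyp19a1 0.13 SD and Khdc3 0.25 SD. Levelled, Cyp19a1 was 0.072 SD and Foxl2 -1.0 SD. Without aged libraries 1 and 2, B2m was 0.17 SD and Cyp19a1 1.24 SD, and without aged libraries 3 and 4, Cdkn1a was 0.065 SD, Foxl2 -0.49 SD and Khdc3 1.15 SD. With 1 library left out, B2m spanned -0.42 to 0.29 SD, Cdkn1a -0.12 to 0.22 SD, Cyp19a1 -0.92 to 0.25 SD, Foxl2 -0.40 to 0.60 SD and Khdc3 -0.80 to 0.47 SD. The cause was not tested. Scores have no pseudocount and no low-value filter to vary, and with 4 libraries per group, scaled values and unknown depth they give neither fold changes nor absence of a transcript.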
